A study of Mus musculus with 6 samples.

Results

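The genes described here encode the enzymes that make serine, pass its carbon through folate carriers, and build or salvage purine and pyrimidine nucleotides. They were chosen as a list of 31 enzyme genes. For each, the probe set with the highest mean over all arrays was taken from those that carry its symbol alone in the platform annotation. A probe set was found for 30 of the 31, among 19938 genes with one, and all 30 passed the filter on low values that left 11147 genes for testing. Impdh2, which encodes an IMP dehydrogenase, had no probe set under its own symbol and is not analysed here.

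Values come from 6 Affymetrix arrays of splenic CD8+ T cells of female C57BL/6 mice carrying the Pmel-1 T cell receptor transgene, which directs the cells against a peptide of the melanocyte protein gp100. IL-12 primed cells (2 arrays) received gp100 for 4 days and IL-12 for 6 days. IL-2 primed cells (2 arrays) also received gp100 for 4 days, and IL-2 for 6 days. Naive cells (2 arrays) were taken fresh and sorted by CD8 and Thy1.1, without antigen or cytokine. The labels give no age and no cytokine dose, do not say whether antigen and cytokine days overlapped, and name no sort of the primed cells. The labels do not say whether the 2 arrays of each group hold RNA from different mice or different cultures, so the p-values measure the spread between these arrays, which may be technical. The study's stated purpose for setting the cytokines against each other was to find genes needed for activity against tumours.

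Serine is made from an intermediate of glycolysis. Serine hydroxymethyltransferases move its side-chain carbon onto tetrahydrofolate, and parallel sets of folate enzymes in the cytosol and in mitochondria turn that carbon into formyl and methylene groups. These groups enter the purine ring and turn deoxyuridylate into thymidylate. Purines and pyrimidines both need phosphoribosyl pyrophosphate (PRPP) as their sugar donor. Activated T cells are known for raising these pathways before they divide.

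Promoter sequence was taken from RefSeq's mouse assembly GRCm38.p6, as 250 bases before to 50 bases after each annotated start. The table held 34 such windows for 29 of the 31 genes; Dhodh and Pfas had no entry. The E-box bound by MYC family factors (CACGTG, its own reverse complement) lay in 5 of these 34 windows, or 14.7%, against 7.15% of all 32851 windows. Its surroundings are shown for the 5 genes concerned, with the E-box in capitals, because these genes did not share a call on the arrays.
Atic (chr1:71557137-71557166, + strand): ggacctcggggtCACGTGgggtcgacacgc
Dtymk (chr1:93802065-93802094, - strand): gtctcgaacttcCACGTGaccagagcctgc
Impdh2 (chr9:108560314-108560343, + strand): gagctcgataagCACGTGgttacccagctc
Paics (chr5:76951087-76951116, + strand): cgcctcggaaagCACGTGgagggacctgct
Tyms (chr5:30073669-30073698, - strand): aaccacttctgtCACGTGggggcggggtct
Of these 5 genes Atic alone passed the test between IL-12 and IL-2 cells; Dtymk, Paics and Tyms did not, and Impdh2 was not measured. An E2F core (TTCCCGC or TTGGCGC, both strands, overlaps allowed) lay in 9 of the 34 windows, or 26.5%, against 6.81% of all windows. A CCAAT box (CCAAT, both strands) lay in 13 of them, or 38.2%, against 37.4%. The windows of the listed genes had a median G and C content of 61.0%, against 52.7% over all windows, so the shares are a description and no test.

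The 120 bases before the start are shown for the pair of serine hydroxymethyltransferase genes, which supply both folate compartments, and for Phgdh, which opens serine synthesis. All of them were higher in IL-12 than in IL-2 cells, and no annotated gene overlaps these stretches. Capitals mark a CCAAT box on either strand.
Shmt2 (chr10:127522445-127522564, - strand): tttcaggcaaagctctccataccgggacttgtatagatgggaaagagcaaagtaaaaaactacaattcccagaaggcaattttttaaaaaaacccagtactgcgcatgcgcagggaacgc
Shmt1 (chr11:60811266-60811385, - strand): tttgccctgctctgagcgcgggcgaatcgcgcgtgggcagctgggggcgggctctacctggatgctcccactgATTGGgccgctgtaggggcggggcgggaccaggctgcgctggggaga
Phgdh (chr3:98339970-98340089, - strand): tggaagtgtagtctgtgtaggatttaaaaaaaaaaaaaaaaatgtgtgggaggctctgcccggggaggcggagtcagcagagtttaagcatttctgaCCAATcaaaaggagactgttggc
Neither the E-box nor the CCAAT box was found in the window of Shmt2, the gene with the largest difference between IL-12 and IL-2 cells among those listed.

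Before the comparisons, the arrays themselves were checked. Values are log2 values made with RMA, and a log2 fold change is a difference of group means, given with its standard error (SE). Tests used limma, with p adjusted by Benjamini and Hochberg's method over the 11147 tested genes and a threshold of 0.05. The number of arrays limits the precision. Cd8a read 12.17 and 12.12 in IL-12 cells, 12.26 and 12.36 in IL-2 cells and 12.61 and 12.66 in naive cells, and Cd4 lay between 6.19 and 6.61 on all 6. Naive replicate 1 read below naive replicate 2 for 27 of the 30 measured genes, with a median difference of -0.18, against -0.07 over all tested genes. IL-12 replicate 1 read below IL-12 replicate 2 for 24 of the 30, with a median difference of -0.07. No group mean of a listed gene was as low as the highest group mean among 3 Y-linked probe sets, which female cells should not fill (4.96).

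**Figure D1:**
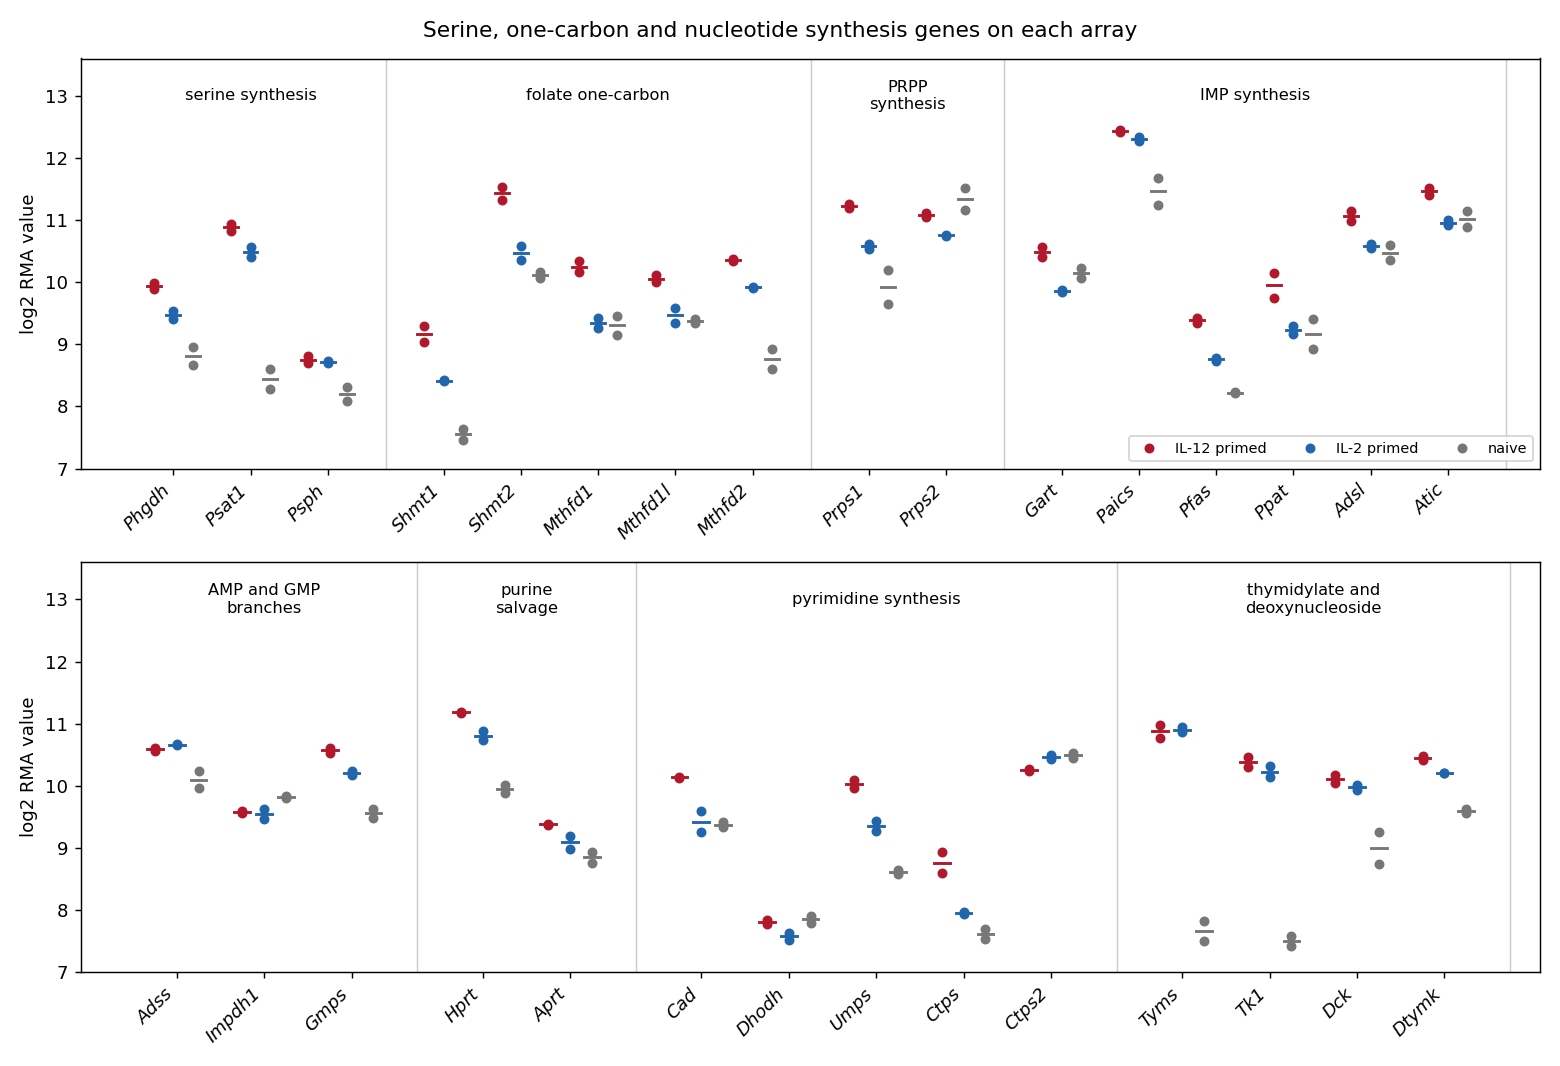
Log2 RMA values (vertical axis) of the 30 measured genes in IL-12 primed (red), IL-2 primed (blue) and naive (grey) cells, with 1 point per array, a bar at the mean of each group (n = 2), and genes ordered by role. Tyms and Tk1 stand far above naive cells in both primed groups, whereas Mthfd1, Atic and Cad are near the naive level in IL-2 cells and higher in IL-12 cells.

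Set against IL-2 primed cells, IL-12 primed cells had higher values of 17 of the 30 genes and lower values of 0 by limma's adjusted p, and 0 were lower at an unadjusted p under 0.05. Over all tested genes 9.82% were higher, 11.0% were lower and 20.8% changed in either direction. No listed gene reached a 2-fold difference, and the log2 fold changes ran from -0.21 for Ctps2 to 0.96 for Shmt2, with a median of 0.42 against 0.02 over all tested genes. The arrays of both groups did not overlap for 26 of the 30, against 69.5% of all tested genes. All 5 folate enzymes rose, with 5 of 6 enzymes of IMP synthesis and 3 of 5 of pyrimidine synthesis, whereas none of the 4 thymidylate and deoxynucleoside enzymes passed the test. The difference between these role groups was itself not tested.

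These calls rest on few arrays. The count of 17 became 9 without IL-12 replicate 1 and 8 without IL-12 replicate 2. It became 9 with IL-2 replicate 1 left out and 5 with IL-2 replicate 2 left out, and over these 4 fits between 3.03% and 5.50% of all tested genes were called higher. Shmt1, Shmt2, Mthfd1, Pfas and Ctps were called with any single array left out and under each other setting that could test them; the filter at the 75th percentile removed Ctps. The median log2 fold change of the 30 genes stayed between 0.40 and 0.45 without any 1 array. Without a primed array its group held 1 array, and a smaller share of all tested genes passed. A call lost in such a fit does not by itself show a smaller difference.

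**Figure D2:**
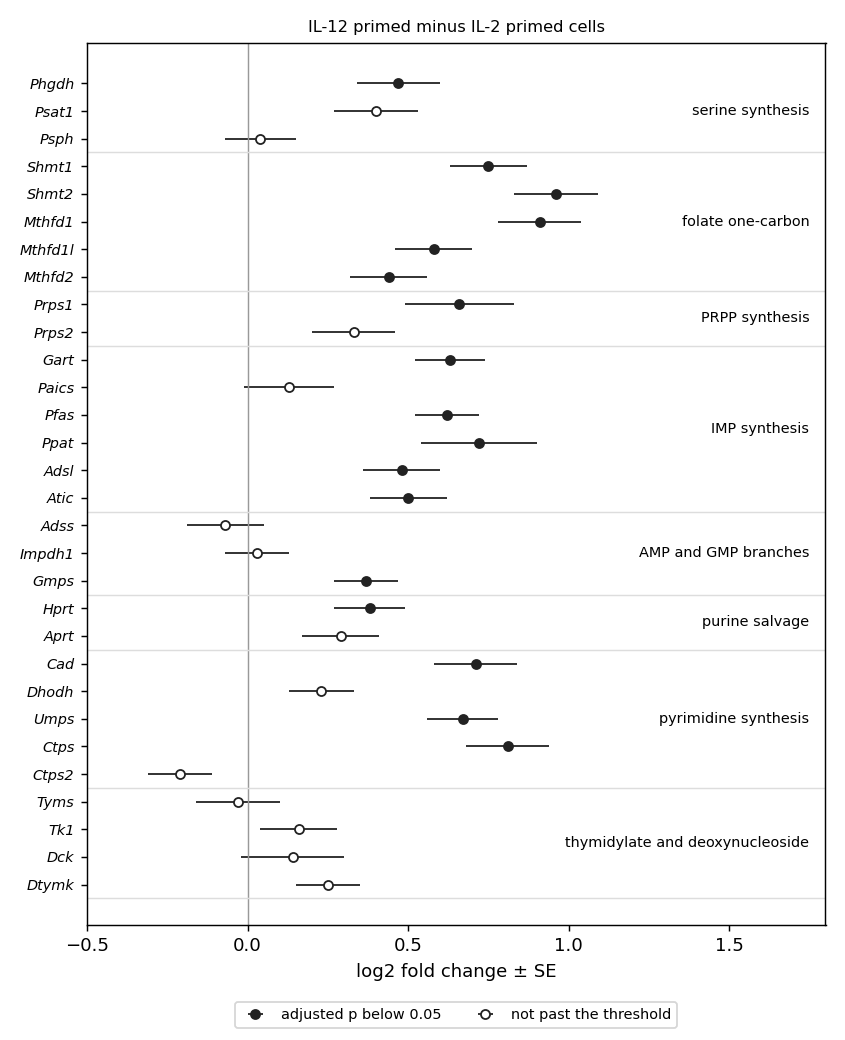
Log2 fold change of IL-12 primed over IL-2 primed cells (horizontal axis, bars are the limma SE, n = 2 arrays per group) for the 30 measured genes by role. Filled points had a limma adjusted p under 0.05 and open points did not; all 5 folate genes are filled, and all 4 thymidylate and deoxynucleoside genes are open.

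Of the 3 serine synthesis genes, all rose over naive cells in both primed groups and 1 was higher in IL-12 than in IL-2 cells. Over all tested genes 31.2% were higher than naive in IL-12 cells and 25.8% in IL-2 cells. Between the primed groups 9.82% were higher in IL-12 cells. Phgdh, whose enzyme oxidises the glycolytic intermediate in the first step, read 9.89 and 9.99 in IL-12 cells, 9.53 and 9.41 in IL-2 cells and 8.67 and 8.96 in naive cells. IL-12 arrays lay above both other groups, and the rise over IL-2 cells was 0.47 ± 0.13 (limma adjusted p = 0.0291). Leaving out any 1 of the 4 primed arrays gave a rise of 0.41 to 0.53, which was not called. A further probe set, annotated to Phgdh and Gm6756 together and left out of the tests, read 10.34 and 10.50 in IL-12 cells, 10.11 and 10.13 in IL-2 cells and 9.10 and 9.43 in naive cells, the same order. Psat1, the aminotransferase of the next step, read 10.94 and 10.83 in IL-12 cells, 10.56 and 10.40 in IL-2 cells and 8.28 and 8.60 in naive cells. Its difference between the primed groups, 0.40 ± 0.13, did not pass (limma adjusted p = 0.0622), while it exceeded the naive level 5.45-fold in IL-12 cells and 4.12-fold in IL-2 cells (limma adjusted p = 1.07e-06 and 4.93e-06). With the naive arrays left out of the fit, the difference between the primed groups did pass (0.0189). Psph, the phosphatase that releases serine, read 8.81 and 8.70 in IL-12 cells, 8.70 and 8.74 in IL-2 cells and 8.09 and 8.32 in naive cells. The primed groups overlapped, and both lay above naive cells, by 0.55 ± 0.11 and 0.51 ± 0.11 (limma adjusted p = 0.00302 and 0.00615).

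Among the folate enzymes, Shmt2, the mitochondrial serine hydroxymethyltransferase, read 11.33 and 11.54 in IL-12 cells, 10.59 and 10.36 in IL-2 cells and 10.06 and 10.17 in naive cells. The IL-12 arrays stood apart from both other groups and were 1.95-fold above IL-2 cells (limma adjusted p = 0.00119). The rise of Shmt2 in IL-2 over naive cells, 0.36 ± 0.13, lay just inside the threshold (limma adjusted p = 0.042) and was lost under 8 of the alternatives, which kept it between 0.25 and 0.48. Shmt1, its cytosolic counterpart, read 9.04 and 9.29 in IL-12 cells, 8.41 and 8.42 in IL-2 cells and 7.46 and 7.64 in naive cells. The 3 groups were fully separated, with IL-12 cells 1.68-fold above IL-2 cells (limma adjusted p = 0.00361) and 3.05-fold above naive cells.

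The next enzymes interconvert folate-bound carbon. Mthfd1, the cytosolic trifunctional enzyme, read 10.16 and 10.34 in IL-12 cells, 9.42 and 9.27 in IL-2 cells and 9.15 and 9.46 in naive cells. The IL-2 and naive arrays overlapped, and the IL-12 arrays were 1.88-fold above IL-2 cells (limma adjusted p = 0.00231). Mthfd1l, the mitochondrial enzyme that releases formate, read 10.11 and 10.00 in IL-12 cells, 9.59 and 9.35 in IL-2 cells and 9.35 and 9.41 in naive cells. Its IL-2 and naive arrays overlapped too, and IL-12 arrays were higher, with a rise of 0.58 ± 0.12 over IL-2 cells (limma adjusted p = 0.0094) that was lost on leaving out IL-12 replicate 1 (0.0675) or, separately, IL-2 replicate 2 (0.109). Mthfd2, a mitochondrial dehydrogenase and cyclohydrolase of the same route, read 10.34 and 10.37 in IL-12 cells, 9.91 and 9.93 in IL-2 cells and 8.60 and 8.92 in naive cells. Most of its distance from naive cells was already there in IL-2 cells (1.16 ± 0.12), and the further rise in IL-12 cells was 0.44 ± 0.12 (limma adjusted p = 0.0365). With each of the 4 primed arrays left out, that further rise was 0.42 to 0.45 and was not called. It was also not called with quantile normalization (limma adjusted p = 0.0609) or median centring (0.0607).

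PRPP is made by a pair of X-linked isozyme genes, whose difference from each other was not tested. Prps1 read 11.26 and 11.20 in IL-12 cells, 10.61 and 10.54 in IL-2 cells and 9.65 and 10.20 in naive cells, so the 3 groups were separated. It was 1.58-fold higher in IL-12 than in IL-2 cells (limma adjusted p = 0.0241). Leaving out any 1 primed array ended that call, with log2 differences of 0.62 to 0.69 against 0.66 with all arrays kept. Prps2 read 11.05 and 11.12 in IL-12 cells, 10.76 and 10.75 in IL-2 cells and 11.17 and 11.51 in naive cells. It was the only listed gene called lower in IL-2 against naive cells (-0.59 ± 0.13, limma adjusted p = 0.00568). With quantile normalization it was also called lower in IL-12 than in naive cells (-0.38, limma adjusted p = 0.0334). Without naive replicate 1 it was called lower there too (-0.43). Its IL-12 minus IL-2 difference, 0.33 ± 0.13, did not pass (limma adjusted p = 0.103), though it did in a fit without the naive arrays (0.0218).

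IMP, the parent of AMP and GMP, is built on PRPP by 6 enzymes. Ppat, the amidotransferase of the committed step, read 9.75 and 10.15 in IL-12 cells, 9.29 and 9.17 in IL-2 cells and 8.92 and 9.40 in naive cells. IL-2 and naive arrays overlapped, and IL-12 cells were 1.65-fold above IL-2 cells (limma adjusted p = 0.024). Gart, a trifunctional enzyme that uses formyl-folate, read 10.40 and 10.57 in IL-12 cells, 9.87 and 9.84 in IL-2 cells and 10.07 and 10.23 in naive cells. The IL-2 arrays of Gart were the lowest: it rose by 0.63 ± 0.11 in IL-12 over IL-2 cells (limma adjusted p = 0.00549) and had a difference of -0.29 ± 0.11 in IL-2 against naive cells (limma adjusted p = 0.0624). Pfas, the amidotransferase of the fourth step, read 9.35 and 9.42 in IL-12 cells, 8.74 and 8.78 in IL-2 cells and 8.23 and 8.21 in naive cells. Its arrays lay close together within each group and its groups were separated, with a rise of 0.62 ± 0.10 over IL-2 cells (limma adjusted p = 0.00311).

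Paics, which carries out a pair of steps in mid-pathway, read 12.42 and 12.45 in IL-12 cells, 12.28 and 12.33 in IL-2 cells and 11.25 and 11.68 in naive cells. It was 1.95-fold above naive in IL-12 and 1.79-fold above naive in IL-2 cells, and between the primed groups it differed by 0.13 ± 0.14 (limma adjusted p = 0.577; 95% interval -0.20 to 0.45). Ppat and Paics are neighbours on chromosome 5 that run in opposite directions, with annotated starts 276 bases apart, and the E-box window of Paics shown above lies inside the Ppat gene. Adsl, which acts in IMP synthesis and again in the AMP branch, read 10.98 and 11.15 in IL-12 cells, 10.55 and 10.61 in IL-2 cells and 10.35 and 10.60 in naive cells. Atic, the enzyme of the closing steps and a user of formyl-folate, read 11.41 and 11.52 in IL-12 cells, 11.00 and 10.92 in IL-2 cells and 10.89 and 11.15 in naive cells. In both genes IL-2 and naive arrays overlapped and IL-12 arrays were higher, by 0.48 ± 0.12 for Adsl and 0.50 ± 0.12 for Atic (limma adjusted p = 0.0243 and 0.0193). Both calls, and that of Ppat except without IL-12 replicate 1, were lost with any 1 primed array left out (0.056 to 0.171); that of Gart was lost on leaving out either replicate 2, of IL-12 (0.0552) or of IL-2 cells (0.0629).

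Past IMP, 1 of 3 measured genes was higher in IL-12 than in IL-2 cells, beside 9.82% of all tested genes. Gmps, the GMP synthetase, read 10.53 and 10.61 in IL-12 cells, 10.24 and 10.17 in IL-2 cells and 9.49 and 9.63 in naive cells. Its rise of 0.37 ± 0.10 over IL-2 cells was close to the threshold (limma adjusted p = 0.0384). The call was lost without any 1 primed array, with a rise of 0.33 to 0.41. It was also lost with no filter, quantile normalization or median centring (limma adjusted p = 0.0519 to 0.063). Adss, which opens the AMP branch, read 10.56 and 10.61 in IL-12 cells, 10.67 and 10.65 in IL-2 cells and 9.96 and 10.24 in naive cells. It rose over naive cells in both primed groups and had a value of -0.07 ± 0.12 for IL-12 minus IL-2 cells (limma adjusted p = 0.702). Impdh1, an IMP dehydrogenase of the GMP branch, read 9.56 and 9.59 in IL-12 cells, 9.47 and 9.63 in IL-2 cells and 9.80 and 9.84 in naive cells. Naive arrays were the highest, and no comparison passed (limma adjusted p = 0.889 for IL-12 against IL-2, 0.0728 for IL-12 against naive and 0.0625 for IL-2 against naive). With quantile normalization it was called lower than naive in IL-12 cells (-0.3, limma adjusted p = 0.0426) and in IL-2 cells (-0.32, limma adjusted p = 0.0428).

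The salvage enzymes recover free bases. Hprt, for hypoxanthine and guanine, read 11.19 and 11.18 in IL-12 cells, 10.88 and 10.74 in IL-2 cells and 9.88 and 10.02 in naive cells. The groups were separated, with a rise of 0.38 ± 0.11 in IL-12 over IL-2 cells (limma adjusted p = 0.0386). The call was lost without any 1 primed array, with a rise of 0.31 to 0.44. It was also lost with no filter, quantile normalization or median centring (limma adjusted p = 0.0519 to 0.062). Aprt, for adenine, read 9.39 and 9.37 in IL-12 cells, 8.99 and 9.19 in IL-2 cells and 8.76 and 8.94 in naive cells. It passed against naive cells in IL-12 cells (0.53 ± 0.12; limma adjusted p = 0.00402) and not in IL-2 cells (0.25 ± 0.12; 0.118), while the primed groups differed by 0.29 ± 0.12 (0.115).

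In pyrimidine synthesis, Cad, which fuses the opening steps in a single protein, read 10.12 and 10.15 in IL-12 cells, 9.60 and 9.25 in IL-2 cells and 9.33 and 9.42 in naive cells. The IL-2 arrays enclosed the naive ones, and IL-12 cells were 1.64-fold above IL-2 cells (limma adjusted p = 0.00621), which did not hold when IL-2 replicate 2 was left out (0.0684). Dhodh, the mitochondrial dehydrogenase of the middle step, read 7.78 and 7.84 in IL-12 cells, 7.52 and 7.64 in IL-2 cells and 7.80 and 7.90 in naive cells. It passed no comparison with all arrays kept. IL-12 and naive arrays overlapped and the IL-2 arrays were the lowest. The IL-2 minus naive difference was -0.27 ± 0.10, and -0.32 without naive replicate 1. Umps, which makes UMP, read 9.96 and 10.10 in IL-12 cells, 9.44 and 9.27 in IL-2 cells and 8.58 and 8.64 in naive cells. The 3 groups were separated, with a rise of 0.67 ± 0.11 over IL-2 cells (limma adjusted p = 0.0039), lost without IL-2 replicate 2 (0.0578).

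CTP synthase is encoded by Ctps and Ctps2; in humans, loss of the first impairs lymphocyte proliferation. Ctps read 8.59 and 8.94 in IL-12 cells, 7.93 and 7.97 in IL-2 cells and 7.54 and 7.69 in naive cells. It rose 1.75-fold in IL-12 over IL-2 cells (limma adjusted p = 0.00391), and 2.21-fold over naive cells (limma adjusted p = 0.000111). Ctps2 read 10.24 and 10.27 in IL-12 cells, 10.49 and 10.44 in IL-2 cells and 10.53 and 10.45 in naive cells. It had the lowest values in IL-12 cells and passed no comparison. Its IL-12 minus IL-2 difference was -0.21 ± 0.10 (limma adjusted p = 0.165, 95% interval -0.44 to 0.01). With quantile normalization it was called lower in IL-12 than in naive cells (-0.32, limma adjusted p = 0.0223). Without naive replicate 2 it was called lower there too (-0.27).

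All 4 thymidylate and deoxynucleoside genes rose over naive cells in both primed groups. Over all tested genes 31.2% were higher than naive in IL-12 cells and 25.8% in IL-2 cells. Tyms, thymidylate synthase, read 10.77 and 10.98 in IL-12 cells, 10.87 and 10.94 in IL-2 cells and 7.82 and 7.50 in naive cells. It exceeded the naive level 9.30-fold in IL-12 cells and 9.49-fold in IL-2 cells (limma adjusted p = 2.36e-07 and 2.74e-07), the largest rises of the listed genes, and the primed groups overlapped (-0.03 ± 0.13; 95% interval -0.34 to 0.28). Tk1, the cytosolic thymidine kinase of S phase, read 10.31 and 10.47 in IL-12 cells, 10.14 and 10.32 in IL-2 cells and 7.42 and 7.59 in naive cells. Its rises over naive cells were 7.40-fold and 6.61-fold, and the primed groups overlapped. Its other probe set read 10.18 and 10.26 in IL-12 cells, 10.05 and 10.09 in IL-2 cells and 6.69 and 7.41 in naive cells, the same order.

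Dck, which phosphorylates deoxycytidine, read 10.05 and 10.17 in IL-12 cells, 9.94 and 10.01 in IL-2 cells and 8.75 and 9.25 in naive cells. Dtymk, the thymidylate kinase, read 10.42 and 10.48 in IL-12 cells, 10.21 and 10.20 in IL-2 cells and 9.56 and 9.62 in naive cells. Both rose over naive cells in either primed group, between 1.53-fold (Dtymk, IL-2) and 2.16-fold (Dck, IL-12). Between IL-12 and IL-2 cells Dck differed by 0.14 ± 0.16, Dtymk by 0.25 ± 0.10 and Tk1 by 0.16 ± 0.12 (limma adjusted p = 0.586, 0.109 and 0.375), and the 95% intervals of these differences extended up to 0.49, 0.47 and 0.43.

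Against naive cells, IL-12 primed cells had 26 of the 30 genes higher and 0 lower by limma's adjusted p, and Impdh1 and Ctps2 were the 2 lower at an unadjusted p under 0.05. Over all tested genes 31.2% were higher, 26.7% lower and 57.9% changed. Of the 26, 14 rose at least 2-fold, and the arrays did not overlap for 29 of the 30, against 79.2% of all tested genes. In IL-2 primed cells 17 were higher and 1 was lower, and 4 were lower at an unadjusted p under 0.05. Over all tested genes 25.8% were higher there, 19.9% lower and 45.7% changed. Psat1, Mthfd2, Tyms and Tk1 were the 4 that rose at least 2-fold there, and the arrays did not overlap for 23 of the 30, against 73.9% of all tested genes. The median log2 fold change of the 30 genes was 0.96 in IL-12 and 0.53 in IL-2 cells, against 0.04 and 0.01 over all tested genes. Both comparisons share the naive arrays. Impdh1, Dhodh, Ctps2 and Prps2 were the 4 that passed no test in IL-12 against naive cells. Quantile normalization called Impdh1, Ctps2 and Prps2 lower there. Prps2 was also called lower without naive replicate 1 (-0.43), and Ctps2 without naive replicate 2 (-0.27). Gart was called higher (0.34 ± 0.11, limma adjusted p = 0.028), a call lost under 6 of the alternatives, with differences of 0.25 to 0.34. Among these, the fits without 1 IL-2 array repeat the fit of only the IL-12 and naive arrays.

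**Figure D3:**
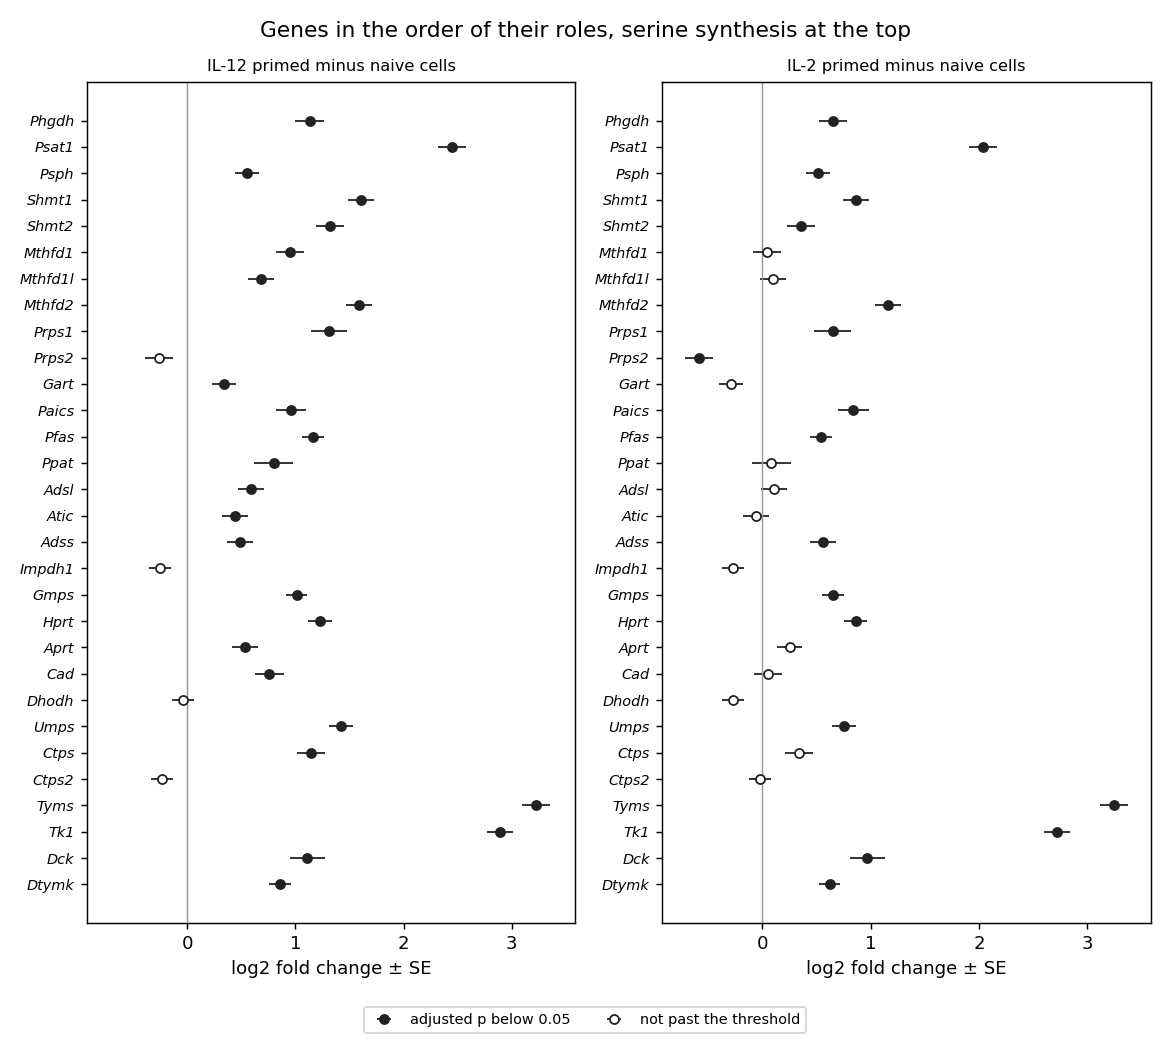
Log2 fold change over naive cells (horizontal axis, bars are the limma SE, n = 2 arrays per group) in IL-12 primed cells (left) and IL-2 primed cells (right) for the 30 measured genes, in the order of their roles. Filled points had a limma adjusted p under 0.05: 26 on the left, and on the right 18, of which Prps2 lies below 0; both panels share the naive arrays.

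Set side by side, 8 genes were higher in IL-12 than in IL-2 cells with no call in IL-2 against naive cells: Mthfd1, Mthfd1l, Gart, Ppat, Adsl, Atic, Cad and Ctps. Their IL-12 minus IL-2 differences ran from 0.48 (Adsl) to 0.91 (Mthfd1), and their IL-2 minus naive differences from -0.29 (Gart) to 0.34 (Ctps). Of the 8, Mthfd1 and Ctps alone kept the call between the primed groups in every setting that could test them. For 2 of the 8 the missing call against naive cells depended on the setting. Ctps was called higher in IL-2 against naive cells with median centring (limma adjusted p = 0.0396), with a replicate block (0.0448) and with only the compared arrays (0.0486). Leaving out either IL-12 array repeats that last fit. Gart was called lower there with quantile normalization (0.0317) and without naive replicate 1 (0.0342). Another 8 rose in IL-2 over naive cells and did not pass between the primed groups: Psat1, Psph, Paics, Adss, Tyms, Tk1, Dck and Dtymk. A further 9 were called higher in both of these comparisons: Phgdh, Shmt1, Shmt2, Mthfd2, Pfas, Gmps, Hprt, Umps and Prps1. Of these 9, Shmt1 and Pfas alone kept both calls in every setting that could test them. The IL-2 arrays enter both comparisons, so these sets describe the values and are not independent evidence. The share of all tested genes with any of these patterns was not counted, so whether counts of 8 or 9 are unusual is not known.

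Markers of division and of other cells moved beside these genes. All 31 tested DNA replication genes rose over naive cells in both primed groups, and 15 of 31 were higher in IL-12 than in IL-2 cells with a median log2 fold change of 0.46. The log2 of their summed values was 15.86 and 15.97 in IL-12 cells, 15.56 and 15.45 in IL-2 cells and 13.93 and 14.16 in naive cells. Of 17 mitosis genes, 0 passed between the primed groups by limma's adjusted p and 0 at an unadjusted p under 0.05 (median 0.02). Their sums were 15.33 and 15.38 in IL-12 cells, 15.34 and 15.28 in IL-2 cells and 11.12 and 11.35 in naive cells. All 17 were higher than in naive cells in both primed groups, with median log2 fold changes of 4.25 in IL-12 and 4.14 in IL-2 cells. Of 9 tested B cell markers, 7 were higher in IL-12 than in IL-2 cells, with sums of 11.20 on both IL-12 arrays, 10.14 and 10.13 in IL-2 cells and 12.36 and 12.37 in naive cells, and 4 of 5 MHC class II genes were higher too, with sums of 12.14 and 11.95 in IL-12 cells, 10.99 and 10.94 in IL-2 cells and 13.18 and 13.15 in naive cells. Of 6 tested myeloid and dendritic markers, Itgam alone was higher in IL-12 than in IL-2 cells. Their sums were 9.65 and 9.69 in IL-12 cells, 9.53 and 9.35 in IL-2 cells and 11.02 and 11.28 in naive cells. Against naive cells 4 were lower and 1 higher in IL-12 cells, and 5 were lower and 0 higher in IL-2 cells. Over all tested genes 26.7% and 19.9% were lower in these comparisons. Of 9 tested CD8 T cell markers, 5 were lower in IL-12 than in IL-2 cells, with sums of 15.29 and 15.27 in IL-12 cells and 15.62 and 15.65 in IL-2 cells. None of the B cell markers had a group mean at or below that of Y-linked genes, and of the NK cell markers Klrb1c and Klra8 lay there in both primed groups by their means. The part of these markers in the results was not tested, and in bulk RNA fewer cells of a type and less RNA per cell cannot be told apart.

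Other genes of folate handling and nucleotide supply were taken from a list of 72, of which 62 had a probe set and 47 were tested. Between IL-12 and IL-2 cells 9 of these were higher and 5 lower, with a median log2 fold change of 0.14, beside 9.82% higher and 11.0% lower over all tested genes. Against naive cells 25 of the 47 were higher and 9 lower in IL-12 cells, beside 31.2% and 26.7% over all tested genes. In IL-2 cells 17 of the 47 were higher and 10 lower than in naive cells, beside 25.8% and 19.9%. The 9 became 4 without IL-12 replicate 1 and 1 without IL-12 replicate 2, and it was 1 with either of the IL-2 arrays left out; the 5 became 1 without IL-2 replicate 2 and 3 without IL-12 replicate 2.

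**Figure D4:**
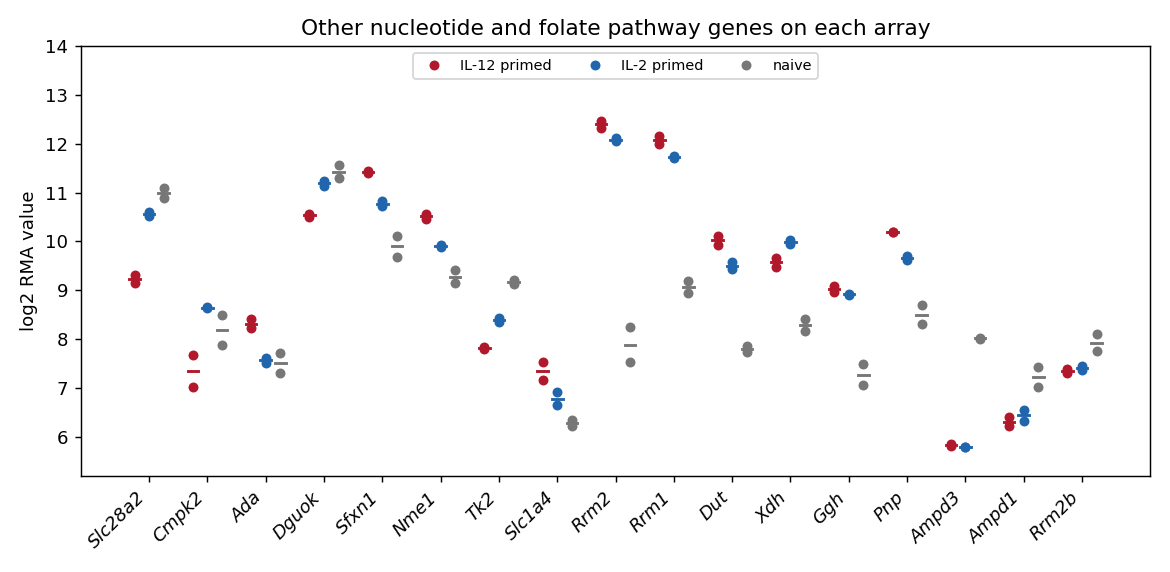
Log2 RMA values (vertical axis) of the 17 named genes of the wider pathway in IL-12 primed (red), IL-2 primed (blue) and naive (grey) cells, with 1 point per array and a bar at each group mean (n = 2). Sfxn1, Nme1 and Slc1a4 are highest in IL-12 cells, Tk2, Dguok and Slc28a2 are lowest there, and Rrm2 and Rrm1 are high in both primed groups.

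Among the genes named because they passed between IL-12 and IL-2 cells were the serine carriers Sfxn1 and Slc1a4, both higher in IL-12 cells. Sfxn1, the mitochondrial serine carrier, read 11.39 and 11.45 in IL-12 cells, 10.83 and 10.72 in IL-2 cells and 9.69 and 10.11 in naive cells, a rise of 0.64 ± 0.14 over IL-2 cells (limma adjusted p = 0.0153). Slc1a4, a transporter of serine and other small neutral amino acids, read 7.53 and 7.17 in IL-12 cells, 6.91 and 6.65 in IL-2 cells and 6.22 and 6.34 in naive cells (0.57 ± 0.15 over IL-2; limma adjusted p = 0.0259). Nme1, a nucleoside diphosphate kinase, rose by 0.60 ± 0.12 (limma adjusted p = 0.00925). Ada, adenosine deaminase, read 8.22 and 8.41 in IL-12 cells, 7.62 and 7.51 in IL-2 cells and 7.31 and 7.72 in naive cells, so IL-2 arrays lay within the naive range and IL-12 arrays above it (limma adjusted p = 0.00877 for IL-12 against IL-2). Each of these 4 calls was lost with some 1 primed array left out: that of Sfxn1 without any of the 4 (0.0618 to 0.124), that of Nme1 without any but IL-12 replicate 1 (0.0593 to 0.0892), that of Slc1a4 without any but IL-12 replicate 2 (0.0549 to 0.206), and that of Ada without either replicate 2 (0.0709 and 0.0851).

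The mitochondrial deoxynucleoside kinases were lower in IL-12 cells. Tk2, which acts on thymidine and deoxycytidine, read 7.83 and 7.79 in IL-12 cells, 8.36 and 8.44 in IL-2 cells and 9.13 and 9.21 in naive cells. It was 1.50-fold lower in IL-12 than in IL-2 cells (limma adjusted p = 0.00486), and the 3 groups were separated, with naive cells highest. Dguok, the deoxyguanosine kinase, read 10.57 and 10.50 in IL-12 cells, 11.14 and 11.24 in IL-2 cells and 11.29 and 11.57 in naive cells, 1.58-fold lower in IL-12 than in IL-2 cells (limma adjusted p = 0.00642). Cmpk2, an interferon-inducible mitochondrial nucleotide kinase, read 7.02 and 7.67 in IL-12 cells, 8.65 and 8.64 in IL-2 cells and 7.87 and 8.49 in naive cells, and was 2.45-fold lower in IL-12 than in IL-2 cells (limma adjusted p = 0.00637). Without IL-2 replicate 2 none of these 3 falls passed (0.0511 to 0.0741), nor did that of Dguok without IL-12 replicate 2 (0.0522). Slc28a2, a concentrative nucleoside transporter, read 9.14 and 9.31 in IL-12 cells, 10.52 and 10.61 in IL-2 cells and 11.10 and 10.88 in naive cells, 2.54-fold lower in IL-12 than in IL-2 cells (limma adjusted p = 0.000171). Its paralog Slc28a2b, with a probe set of its own, was 10.4-fold lower; signal shared between such related genes was not tested.

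Ribonucleotide reductase supplies the deoxynucleotides from ribonucleotides. Its subunit gene Rrm2 read 12.33 and 12.46 in IL-12 cells, 12.11 and 12.06 in IL-2 cells and 7.54 and 8.24 in naive cells, and Rrm1 read 11.99 and 12.16 in IL-12 cells, 11.74 and 11.71 in IL-2 cells and 8.94 and 9.18 in naive cells. Their rises in IL-2 over naive cells were 4.20 ± 0.20 and 2.67 ± 0.12 (limma adjusted p = 6.33e-07 and 4.65e-07), and neither passed between the primed groups (0.307 and 0.0732), though both did in a fit without the naive arrays (0.0348 and 0.0281). Dut, which removes dUTP, rose by 1.71 ± 0.11 in IL-2 over naive cells and was higher again in IL-12 cells (0.51 ± 0.11; limma adjusted p = 0.0152), a call that did not hold on leaving out any primed array but IL-12 replicate 1 (0.063 to 0.14). Ggh, a folate hydrolase, rose by 1.65 ± 0.14 and Pnp, purine nucleoside phosphorylase, by 1.17 ± 0.14 in IL-2 over naive cells. Pnp was higher again in IL-12 than in IL-2 cells (0.53 ± 0.14, limma adjusted p = 0.0258), a call not followed by gene over the alternatives. Ggh did not pass there (0.11 ± 0.14, limma adjusted p = 0.649). Xdh, which makes uric acid, rose by 1.69 ± 0.12 over naive cells and was lower in IL-12 than in IL-2 cells (-0.40 ± 0.12; limma adjusted p = 0.0499), a call lost under 8 of the alternatives (0.0504 to 0.262). Among the falls in IL-2 against naive cells, the AMP deaminase gene Ampd3 fell by 2.23 and Ampd1 by 0.79 on the log2 scale, and Rrm2b, the p53-inducible reductase subunit, by 0.52; the last was not called with median centring (0.0546) or without IL-2 replicate 2 (0.0865).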

How the data were processed

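Per the submitters' processing notes, the log2 values deposited by the authors (35556 probe sets on 6 arrays) came from RMA. The RMA version, its options and the build are not given in the sources used here. RMA brings the arrays' distributions close together, so a shift common to most genes can be hidden. The deposited distributions were not identical. Median centring moved the median log2 fold change of all genes from 0.04 to 0.16 in IL-12 against naive cells. The platform annotation, which can be old, gave 21789 probe sets 1 symbol; those with several (1621) or none (12146) were left out. Genes entered the test with values over 6.83, the median of the whole table, on 2 or more arrays.

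One limma model (version 3.58.1, R 4.3.3; lmFit, eBayes) held a mean for each of the 3 groups and no block (residual degrees of freedom 3, prior 5.62). Tests were two-sided with Benjamini-Hochberg adjustment at 0.05. The procedure was also run on simulated data with independent noise and few changed genes. That setting is simpler than these arrays, so it is no support for the calls given here. The listed genes, the wider list and the marker lists were chosen with earlier results of these data known. Every listed gene is named. From the wider list the named genes are those past the test with the 8 largest changes between the primed groups, or with the 6 largest rises or 4 largest falls in IL-2 against naive cells; Slc28a2b was named after its values were seen. Promoter windows were matched by symbol. Alternatives were no filter or one at the 75th percentile, averaged probe sets, quantile normalization, median centring of arrays, eBayes with trend and robust options, models of the compared arrays only, the replicate number as a block, and omission of single arrays.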

Additional observations from a re-analysis of the deposited data

How the results depend on the processing

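With all arrays kept, 14 to 19 listed genes were higher in IL-12 than in IL-2 cells, 24 to 26 in IL-12 than in naive cells and 16 to 18 in IL-2 than in naive cells. With single arrays left out the first count ran from 5 to 19. Calls held in every setting that could test the gene for 5 of 17, 24 of 26 and 16 of 18 genes, in the same order of comparisons. Over the alternatives, fold changes of listed genes between the primed groups kept direction and call in 362 cases. They lost the call in 45, gained it in 6 and reversed in 4. In IL-12 against naive cells these were 402, 7, 5 and 3, and in IL-2 against naive cells 386, 9, 10 and 12. These counts hold repeats. With 2 arrays per group, leaving out an array of the group not compared gave the same test as fitting only the compared arrays. Quantile normalization gave 3 listed genes lower than naive in IL-12 cells and 3 in IL-2 cells; with single arrays left out these counts ran from 0 to 1 and from 1 to 3. For the wider list, 14 genes were higher in IL-12 than in IL-2 cells with only those arrays fitted, and 1 to 14 with single arrays left out, when 1 to 5 were lower. The filter at the 75th percentile left 5 of the wider list lower than naive in IL-12 cells and 4 in IL-2 cells, with fewer genes tested. Median centring left 6 in IL-2 cells, and single arrays left out gave 3 to 11. Median centring moved the median of all genes to 0.16 in IL-12 and 0.11 in IL-2 against naive cells. Under the filter at the 75th percentile Dhodh, Ctps and Psph had no value, nor had Slc1a4, Ada, Cmpk2, Ampd1, Ampd3 and Rrm2b of the wider list.

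Reversals touched only values that had passed no test; the cause was not tested. With single arrays left out, the IL-12 minus IL-2 difference ran from -0.02 to 0.09 for Psph, from -0.14 to 0.08 for Tyms (0.00 without IL-2 replicate 2) and from -0.06 to 0.11 for Impdh1. The IL-2 minus naive difference ran from -0.12 to 0.19 for Mthfd1 (-0.04 without IL-2 replicate 1), from -0.02 to 0.22 for Mthfd1l, from -0.17 to 0.32 for Ppat, from -0.02 to 0.23 for Adsl, from -0.19 to 0.07 for Atic, from -0.13 to 0.22 for Cad and from -0.06 to 0.01 for Ctps2. The IL-12 minus naive difference of Dhodh ran from -0.09 to 0.01. Quantile normalization gave -0.01 for Mthfd1 and -0.01 for Cad (IL-2 minus naive) and 0.07 for Dhodh (IL-12 minus naive). Median centring gave 0.04 for Atic and 0.07 for Ctps2 (IL-2 minus naive) and 0.08 for Dhodh (IL-12 minus naive).

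Same-numbered arrays deviated from their group means with correlations of 0.15 (IL-12 and IL-2), -0.02 (IL-12 and naive) and 0.02 (IL-2 and naive). These do not establish the numbers as a pairing, and the labels do not say what else the arrays share. With the number as a replicate block, 17 listed genes were higher in IL-12 than in IL-2 cells, 26 in IL-12 than in naive cells and 18 in IL-2 than in naive cells; of the wider list, 10, 25 and 18 were higher and 4, 9 and 10 lower. The deposited values hold no detection call, so background was read only from the Y-linked probe sets.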
